A study of Bos taurus with 12 samples.

Results

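The 10 genes described here serve protein folding and the unfolded protein response (UPR) of the endoplasmic reticulum (ER), and they were followed in the liver of newborn calves. They were chosen by symbol as HSPA5, HSP90B1, CALR, CANX, PDIA3, PDIA4, PDIA6, DNAJB9, HERPUD1 and XBP1, and all 10 were matched among the 30336 genes that were counted. Liver was biopsied from 12 Holstein heifer calves at 4 d of age. The dams of 6 calves were fed a control close-up diet with no added Met (CON), and those of the other 6 received the same diet plus ethyl-cellulose rumen-protected Met (MET) over the last 28 d before calving. All calves were fed and managed alike after birth. Each library is polyadenylated RNA of whole liver tissue, in which fewer cells of a type and less RNA per cell cannot be told apart.

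Proteins that the liver secretes, such as albumin and the apolipoproteins, enter the ER unfolded and are folded there by chaperones of the Hsp70 and Hsp90 families, by the lectin chaperones that hold glycoproteins, and by disulfide isomerases of the PDI family. When unfolded protein accumulates, the sensors IRE1, PERK and ATF6 in the ER membrane start the UPR, which raises the transcription of these same chaperones and of genes for the degradation of misfolded protein. IRE1 acts through the splicing of XBP1 mRNA, a step that gene-level read counts do not show.

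The depth ran from 8277789 to 10397604 counted reads a library, and values are given as CPM, the counts relative to the library total after edgeR's TMM factors, which correct the totals for differences in composition. The floor used here, 3 reads, equals 0.289 to 0.362 CPM on the library totals before those factors. It covers counting error only, and every one of the 10 genes lay far above it in each library. Replicates 1 and 4 of CON differed by little more than sampling noise, as did replicates 1 and 3 of MET, with a chi-square per gene of 1.31 and 1.23 against 23.3 to 122 in the other 64 pairs of libraries. In means, SD, ranges and covariation, either pair therefore entered as 1 sample, which leaves 5 samples per diet. The main edgeR test was kept over the 12 libraries, in which the libraries of a close pair count as separate replicates, and its standard errors and FDR are too small if a pair is 1 calf. The edgeR fit over the 10 samples is given beside it, and every gene said below to pass an FDR of 0.10 did so with libraries of a pair kept apart and not over the 10 samples. The 6 CON libraries shared their first index sequence and the 6 MET libraries another, and all ran on 1 lane. The effects of the index and of the maternal diet cannot be told apart in these libraries. The labels give no sampling day or dam, so that neither could enter the test. The hepatocyte markers fixed for the tissue check (ALB, TTR, APOA1, APOB, SERPINA1, CPS1, TF, AHSG, FGB and HP) summed to between 119286 and 207729 CPM.

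The ER folding genes were abundant in the neonatal liver and were spread widely between calves of the same diet. Together the 10 genes took 3107 to 8486 CPM in CON samples and 4410 to 8317 CPM in MET samples. Of the 10 genes, 9 had a higher fitted level in MET calves, as had 49.6% of all genes tested, and HERPUD1 had a lower level. The median log2 fold change of the 10 was 0.48, against −0.0031 over all genes tested. None of the 10 passed an FDR of 0.10 in edgeR's quasi-likelihood test over the 12 libraries, where 4.41% of the 13212 genes tested passed in either direction and 2.09% passed as higher in MET. At an unadjusted p of at most 0.05, 4 of the 10 genes (HSP90B1, PDIA3, PDIA6 and XBP1) were higher in MET, against 10.2% of all genes. Over the 10 samples with each close pair summed, 3 of the 10 (HSP90B1, PDIA6 and XBP1) reached that p, against 7.86% of all genes, and none passed an FDR of 0.10 in the edgeR test, in which 0% of all genes passed. That p was reached by 2162 of all genes in this fit, in either direction, and DESeq2 on the same 10 samples called 624 genes and none of the 10. In no member did every MET sample lie above every CON sample, a separation that 1.94% of all genes showed. The 10 genes varied largely together over the samples, with a median Pearson's r of 0.816 over their 45 pairs. Counts of them, here and below, are therefore not counts of independent genes.

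**Figure D1:**
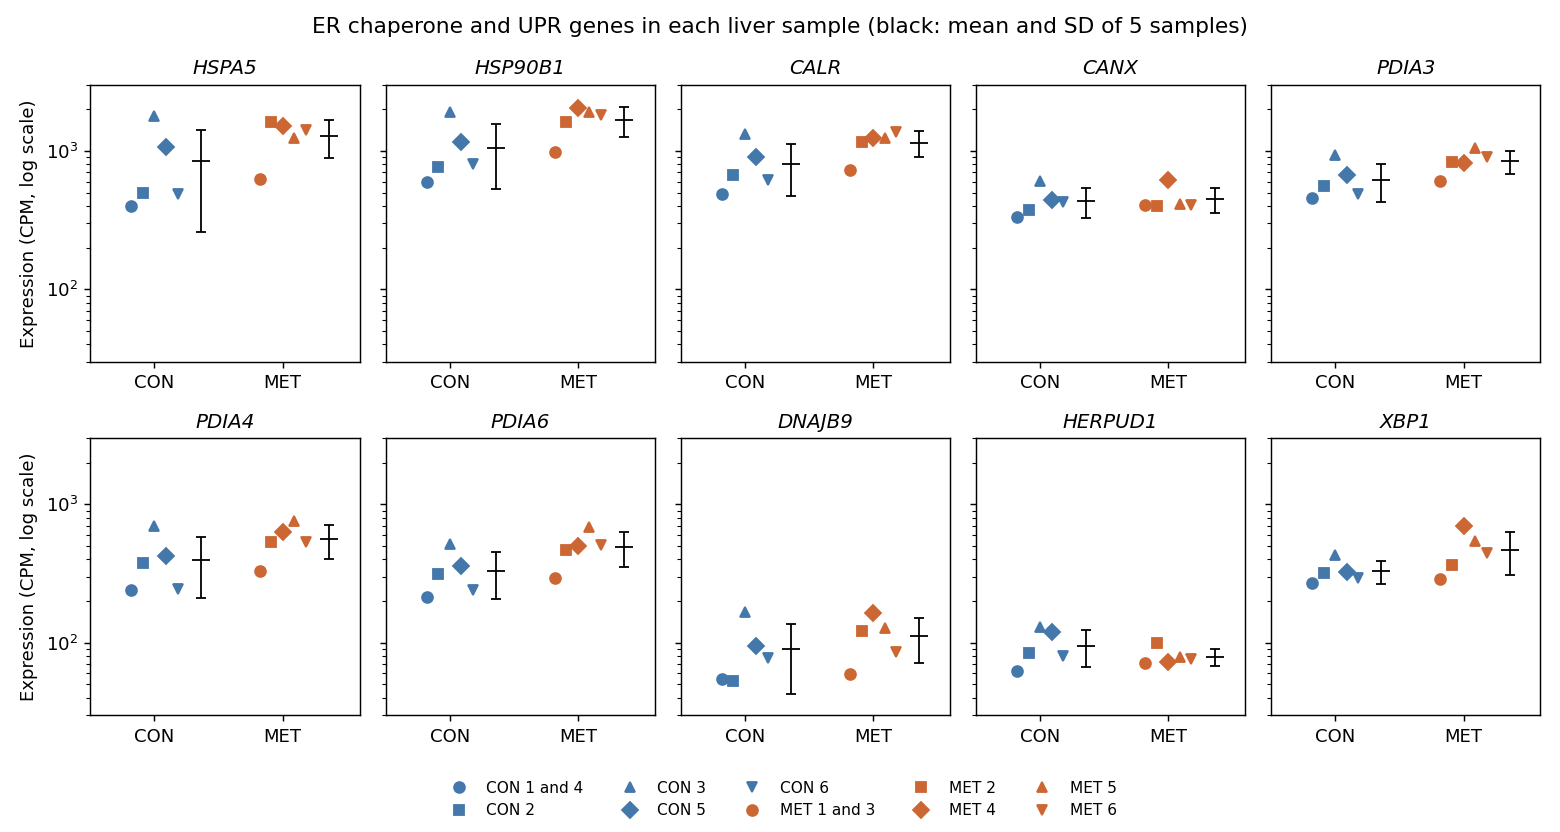
Expression of the 10 genes in CPM on a log scale, with 1 point for each of 5 CON (blue) and 5 MET (orange) samples and the mean with SD in black beside them. The diets overlap in every panel, with CON 3 among the MET samples and the pooled MET 1 and 3 among the CON samples in most panels.

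In the sentences that follow, CON values are given in the order of replicates 1 and 4 together, 2, 3, 5 and 6, and MET values in the order of replicates 1 and 3 together, 2, 4, 5 and 6. HSPA5 encodes BiP, the ER Hsp70 that binds unfolded chains and also holds the UPR sensors inactive. The gene lies on chromosome 11 of UMD 3.1.1, between 96115225 and 96119266 on the minus strand. Its expression was 397, 494, 1776, 1059.9 and 492 CPM in CON samples. MET samples were at 631, 1628, 1526, 1231 and 1422 CPM. The highest of all samples was CON 3, and the lowest MET sample, the close pair, lay below CON 3 and CON 5, so that the diets overlapped widely. The means were 844 ± 583 CPM in CON and 1288 ± 395 CPM in MET (SD, n = 5 each). The log2 fold change was 0.61 ± 0.39 (SE) over the 12 libraries with an FDR of 0.398 in edgeR's test, and 0.61 ± 0.41 over the 10 samples with an FDR of 0.482. Without the CON 3 library the log2 fold change was 1.05, with an FDR of 0.14. HSPA5 also had the widest spread of the 10 genes, with a 4.48-fold range from the lowest to the highest sample, which was wider than that of 89.6% of all genes tested.

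HSP90B1 encodes GRP94, the Hsp90 of the ER lumen, which finishes the folding of a selected set of secreted and membrane proteins. The gene lies on chromosome 5, between 67940792 and 67959532 on the plus strand. Its CPM in CON samples was 596, 769.6, 1908, 1168 and 810.2. The MET samples were at 990.5, 1629, 2048, 1920.0 and 1808 CPM. Only MET 4 and MET 5 lay above CON 3, the highest CON sample, while 3 CON samples lay below all MET samples. The means over the 10 samples were 1050.2 ± 523 and 1679 ± 415 CPM. HSP90B1 had the largest log2 fold change of the 10 genes, 0.68 ± 0.30, with an unadjusted p of 0.037 and an FDR of 0.215 over the 12 libraries by edgeR. Over the 10 samples the log2 fold change was 0.68 ± 0.31 with an FDR of 0.302. HSP90B1 was also the only member that passed the threshold in any of the fits run, at a log2 fold change of 0.99 with an FDR of 0.0926 by edgeR when the CON 3 library was left out. That fit removed its highest CON sample, kept the close pairs apart and was not repeated with them summed.

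The lectin chaperones CALR and CANX hold glycoproteins through their trimmed sugar chains, calreticulin in the lumen and calnexin in the membrane. CALR lies on chromosome 7 between 13731958 and 13735788, on the minus strand. Its level in CON samples was 487, 667, 1321, 909.7 and 612 CPM. In MET samples it was 726, 1155, 1244, 1239 and 1359 CPM. MET 6 alone exceeded CON 3, and 3 CON samples were below all MET samples. The log2 fold change was 0.52 ± 0.26, with an FDR of 0.266 by edgeR over the 12 libraries.

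CANX lies on the same chromosome between 1506746 and 1538915, also on the minus strand. It was at 332, 373, 608, 438 and 426 CPM in CON samples. It was at 409, 400.1, 616, 415 and 405 CPM in MET samples. Apart from CON 3 and MET 4, which stood above the others, the samples of the diets were interleaved. The means over the 10 samples were 435 ± 106 and 449 ± 93.3 CPM. The log2 fold change was 0.08 ± 0.17 over the 12 libraries (FDR 0.826, edgeR), the smallest in size of the 10 genes. Over the 10 samples it was 0.04 ± 0.19 (FDR 0.933, edgeR). CANX was at −0.037 without the MET 4 library, a turn in direction, and at 0.22 without CON 3. CANX also had the narrowest spread, 1.86-fold from the lowest to the highest sample, and 41.0% of all genes had a narrower one.

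PDIA3, PDIA4 and PDIA6 encode disulfide isomerases that form and rearrange disulfide bonds. PDIA3 (ERp57) works on the glycoproteins held by the lectin chaperones, and PDIA6 is a partner of BiP. PDIA3 lies on chromosome 21 between 55924230 and 55946435, on the plus strand, and 176 of its bases overlap CATSPER2 on the opposite strand. PDIA3 expression was 456, 562, 929, 667 and 487 CPM in CON samples. The 5 MET samples were at 608, 829, 816, 1044 and 907 CPM. MET 5 was above every CON sample, and CON 3 was next to it. The log2 fold change was 0.44 ± 0.20, with an unadjusted p of 0.045 and an FDR of 0.233 by edgeR over the 12 libraries. Over the 10 samples the FDR was 0.331.

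PDIA4 lies on chromosome 4 between 112989511 and 113006466, on the minus strand. It was at 240.3, 376, 699.9, 426 and 243 CPM in CON samples and at 331, 538, 629, 756 and 535 CPM in MET samples, again with MET 5 highest and CON 3 next to it. Its log2 fold change of 0.49 ± 0.29 had an FDR of 0.359 by edgeR, and without CON 3 it was 0.77 with an FDR of 0.147. PDIA6 lies on chromosome 11 between 86834832 and 86858171 on the plus strand, with 62 bases shared with ATP6V1C2 on the opposite strand. The counting was stranded, so reads of such neighbours were assigned apart. PDIA6 was at 213, 315, 519, 360.4 and 240.4 CPM in CON samples and at 296, 472, 505, 692 and 505 CPM in MET samples. The order of the samples was close to that of PDIA4, with MET 5 above all others. The log2 fold change of PDIA6 was 0.57 ± 0.26, with an unadjusted p of 0.043 and an FDR of 0.228 by edgeR, and 0.58 ± 0.26 over the 10 samples with an FDR of 0.302.

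DNAJB9 (ERdj4) is an ER J-domain co-chaperone of BiP and a known target of XBP1. It lies on chromosome 4 between 59970591 and 59975650, on the minus strand. Its level was 54.6, 52.9, 168, 95.0 and 77.1 CPM in CON samples and 59.6, 122, 164, 128 and 86.2 CPM in MET samples. The highest sample was CON 3, followed by MET 4, and the lowest MET sample was close to the lowest CON samples. The log2 fold change was 0.30 ± 0.32 (FDR 0.634, edgeR), with a standard error larger than the difference itself. It was 0.12 without the MET 4 library and 0.62 without CON 3.

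HERPUD1 encodes a membrane protein of the machinery that sends misfolded ER proteins to the proteasome. It lies on chromosome 18 between 25048491 and 25059258, on the plus strand. In CON samples it was at 62.3, 84.0, 129, 120.4 and 80.8 CPM. In MET samples it was at 71.0, 98.9, 72.8, 78.9 and 75.8 CPM. CON 3 and CON 5 were the highest samples, MET 2 stood above the other MET samples, and the rest of the diets overlapped. HERPUD1 was the only member with a lower fitted level in MET, at a log2 fold change of −0.20 ± 0.18 and an FDR of 0.565 by edgeR.

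XBP1 encodes the transcription factor downstream of IRE1 and is itself raised by ATF6. It lies on chromosome 17 between 70344599 and 70349594, on the minus strand. Its CPM was 271, 319, 428, 327 and 292 in CON samples and 289, 363, 698, 548 and 448 in MET samples. MET 4, MET 5 and MET 6 were above every CON sample, the largest number of such MET samples for any of the 10 genes, whereas MET 2 and the close MET pair lay within the CON range. The log2 fold change was 0.46 ± 0.21 over the 12 libraries (unadjusted p 0.048, FDR 0.239, edgeR) and 0.52 ± 0.23 over the 10 samples (FDR 0.29). Without the MET 4 library it was 0.28.

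**Figure D2:**
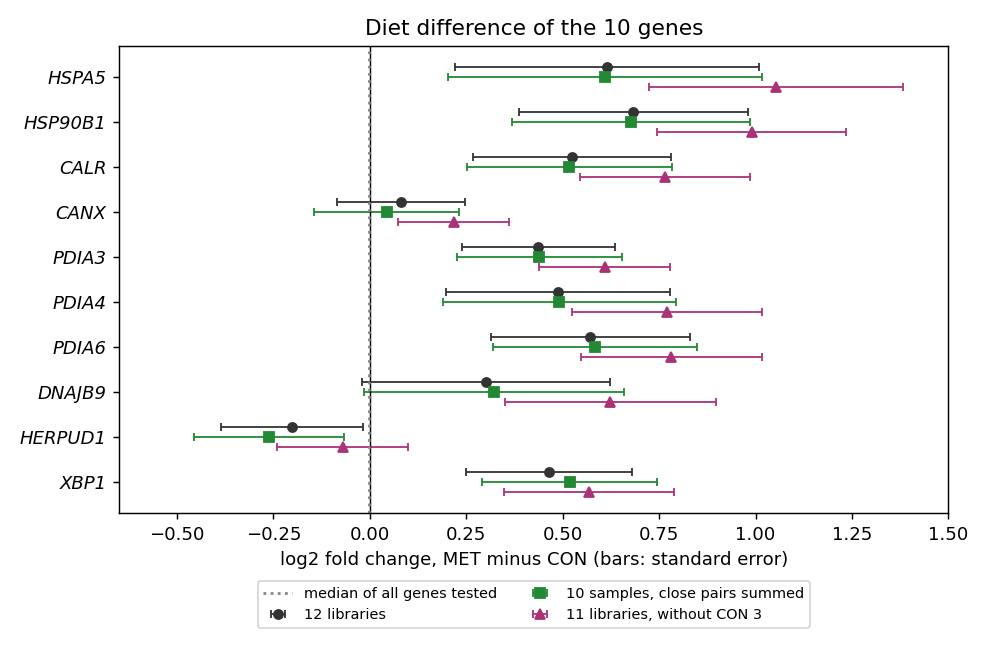
Log2 fold change of each gene, MET minus CON, with bars of 1 standard error, over the 12 libraries (circles), the 10 samples with close pairs summed (squares) and the 11 libraries without CON 3 (triangles), with the median of all genes as a dotted line. All genes but HERPUD1 lie to the right of 0, and without CON 3 the estimates move right, to 0.99 for HSP90B1 and 1.05 for HSPA5. Fits without another library are not shown.

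Of the 12 libraries left out 1 at a time, CON 3 moved the median of the 10 genes most. When a library of a close pair was left out, its partner stayed in, so neither pooled sample was ever left out whole. The median was 0.41 without CON 1 and 0.41 without CON 4. CON 3 was among the 3 highest of the 10 samples in 9 of the 10 genes. The pooled CON 1 and 4 was the lowest or next to the lowest in all 10. Among MET samples, MET 4 was among the 3 highest in 7 genes and MET 5 in 6, and the pooled MET 1 and 3 in none. Without the CON 3 library the median log2 fold change of the 10 genes was 0.69, 8 of them were higher with an unadjusted p of at most 0.05, as were 9% of the 13294 genes tested in that fit, and 1, HSP90B1, passed an FDR of 0.10, as 0.993% did in that direction. None of the 10 had an unadjusted p of at most 0.05 in edgeR's test when CON 1, CON 2, CON 4, CON 6, MET 4, MET 5 or MET 6 was left out, while in those fits 8.45%, 10.3%, 8.08%, 9.57%, 9.2%, 9.78% and 8.54% of all genes had it as higher in MET. Of the 10 genes, 1 had it without MET 2 (9.25% of all genes), 3 without CON 5 (9.73%), 5 without MET 1 (9.57%) and 5 without MET 3 (9.79%). The lowest median over the 12 libraries left out in turn was 0.37, without MET 5. HERPUD1 kept a lower fitted level in MET whichever library was left out, between −0.30 and −0.07.

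Expression was then compared between the genes as CPM per 1000 bases of exonic length. CALR, HSPA5 and HSP90B1 had the highest mean levels over the 10 samples, at 508, 491 and 490.0 CPM per 1000 bases, which differed by far less than the SD within a diet. The next level was that of PDIA3 at 377, followed by XBP1 at 223, PDIA4 at 201 and PDIA6 at 173. CANX was at 117, well below its lumenal relative CALR. HERPUD1 and DNAJB9 were lowest, at 50.8 and 40.3 CPM per 1000 bases. On the same scale HSPA5 was at 389 ± 269 in CON and 593 ± 182 in MET, and XBP1 at 183 ± 33.9 in CON and 262 ± 89.7 in MET (SD, n = 5 each). Between neighbours in this order, the difference was larger than the SD within either diet from PDIA3 to XBP1 and from CANX to HERPUD1, and not between the others.

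HSPA5 was used as the reference for covariation because it is the classical readout of ER load. Over the 10 samples, Pearson's r of log2 CPM with HSPA5 was highest for CALR (0.971) and HSP90B1 (0.962), each with a permutation p adjusted over all genes of 0.0721. These 2 were the only ones of the 9 other members to pass an adjusted p of 0.10 with a positive r, as 0.0984% of all 13211 genes did. PDIA3 had an r of 0.919 (adjusted permutation p = 0.157), PDIA4 of 0.905 (0.157), PDIA6 of 0.891 (0.189) and DNAJB9 of 0.888 (0.237). XBP1 followed at 0.742, CANX at 0.658 and HERPUD1 at 0.522, with adjusted permutation p-values of 0.435, 0.587 and 0.778. The median r of the 9 genes was 0.891, against −0.021 over all genes, and 6 of the 9 were among the 47 genes with the highest r. Spearman's rho was 0.879 for CALR and 0.83 for HSP90B1, with adjusted permutation p-values of 0.506 and 0.511, so that no member passed on ranks.

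The 2 samples farthest from the median of HSPA5 were the pooled CON 1 and 4 and CON 6, and without them r was 0.947 for CALR, 0.931 for HSP90B1, 0.839 for PDIA3, 0.815 for PDIA4, 0.779 for PDIA6 and 0.904 for DNAJB9. It was 0.621 for XBP1, 0.583 for CANX and 0.344 for HERPUD1. HSPA5 left a gap between 631 and 1059.9 CPM, with 4 samples below it and 6 above, 3 of the 4 from CON and 4 of the 6 from MET. After the mean of each diet was taken out, r was 0.963 for CALR, 0.958 for HSP90B1 and 0.645 for XBP1, and 0.856 for HERPUD1, a value set more by the CON than by the MET samples, with a median of 0.874 over the 9 genes.

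**Figure D3:**
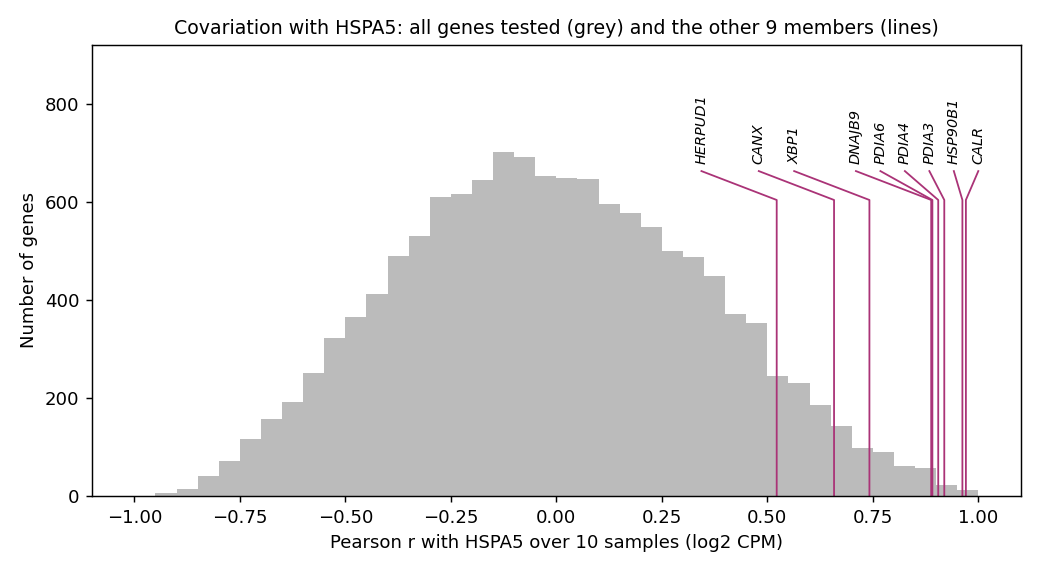
Number of genes by Pearson's r with HSPA5 over the 10 samples, for all 13211 genes compared (grey), with a line for each of the other 9 members. CALR and HSP90B1 lie at the right end at 0.971 and 0.962, and HERPUD1 has the lowest r of the 9 at 0.522.

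Among themselves the 10 genes formed 45 pairs with a median r of 0.816, given as a description over 10 samples that share depth and scaling. The closest pair was PDIA3 with PDIA6, at 0.987, and HSP90B1 with CALR was next at 0.986. The loosest pair was HERPUD1 with XBP1, at 0.032. All 36 pairs without HERPUD1 were at 0.515 or above, and the lowest of these were CANX with PDIA6 and CANX with PDIA3. As a ratio, chosen after the values were seen and not tested, HERPUD1 was 20.5, 21.4, 15.4, 22.1 and 21.96 CPM per 1000 CPM of the other 9 genes in CON samples. It was 16.4, 13.9, 8.82, 9.90 and 10.1 in MET samples. The MET samples other than the close pair lay below every CON sample in this ratio, and the close pair lay just above CON 3.

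The 5 genes outside the list whose pattern was most like that of HSPA5 were HYOU1 (r = 0.995), DNAJB11 (0.990), PRRC1 (0.987), GNPNAT1 (0.978) and GMPPB (0.977), each with an adjusted permutation p of 0.0721. HYOU1 encodes GRP170, the nucleotide exchange factor of BiP, and DNAJB11 (ERdj3) a J-domain co-chaperone of BiP. GNPNAT1 and GMPPB act in the synthesis of the sugar nucleotides from which glycans are built. HYOU1 was at 49.96, 58.5, 249, 136 and 65.6 CPM in CON samples and at 80.8, 195, 227, 168 and 188 CPM in MET samples. As with HSPA5, CON 3 was highest and the pooled CON 1 and 4 lowest.

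**Figure D4:**
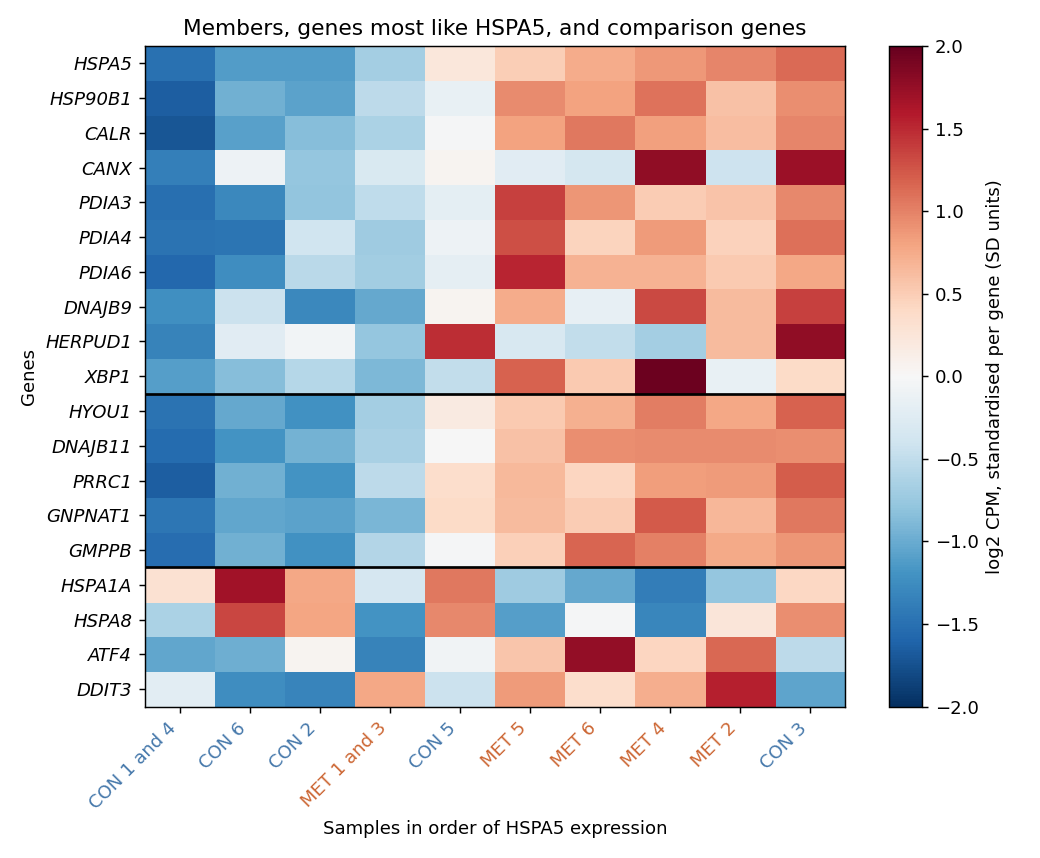
Log2 CPM standardised for each gene (colour, in SD units) in the 10 samples, ordered from the lowest to the highest HSPA5, for the 10 members, the 5 genes most like HSPA5, and 4 comparison genes. The first 15 rows run from blue to red from left to right, least clearly for CANX, HERPUD1 and XBP1, and of the 4 comparison genes ATF4 has an r with HSPA5 of 0.661, near that of CANX, DDIT3 of 0.466, HSPA8 of −0.088 and HSPA1A of −0.593.

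Other genes of ER folding were followed in 6 lists. The 13 co-factors of the ER Hsp70 and Hsp90 system were all tested, and 11 were higher and 2 lower in MET, with a median log2 fold change of 0.44. Only CNPY3, a co-chaperone of GRP94, passed over the 12 libraries, at 0.48 with an FDR of 0.0571 by edgeR, and over the 10 samples its FDR was 0.175. CNPY3 was at 44.8 to 54.3 CPM in CON samples and at 52.7 to 77.2 CPM in MET samples. Its r with HSPA5 was 0.382 (adjusted permutation p = 0.878). The largest difference was that of SDF2L1, a BiP-associated factor, at 1.15 ± 0.49 (FDR 0.208), and the most negative that of DNAJC10, a J-domain reductase, at −0.09 (FDR 0.702, edgeR). MANF, a small secreted ER protein that binds BiP, had the highest level per length, and its r with HSPA5 was 0.972. It was at 59.8, 66.2, 217, 136 and 82.1 CPM in CON samples and at 108, 263, 251, 218 and 251 CPM in MET samples, with a log2 fold change of 0.95 ± 0.35 and an FDR of 0.153 by edgeR. Of this list 4 of 13 genes passed the covariation test with HSPA5. In the other 5 lists only UGGT1, the sensor that returns unfolded glycoproteins to the lectin chaperones, passed it, with an r of 0.947 (adjusted permutation p = 0.0721).

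Of 18 tested genes of the PDI family and oxidative folding none passed in either direction, 13 were higher and 5 lower, and the median log2 fold change was 0.22. The cyclophilin PPIB had the highest level per length, at 718 CPM per 1000 bases, above every member, and a log2 fold change of 0.24 (FDR 0.38, edgeR). FKBP14, a prolyl isomerase of the ER, had the largest difference at 0.76 (FDR 0.237), and the thioredoxin-related TMX3 the most negative at −0.31 (FDR 0.435, edgeR). In the calnexin and calreticulin cycle none of 9 passed the test between the diets, 8 were higher and 1 lower, and the median was 0.10. MOGS, the glucosidase that starts the trimming of glycans, was at 0.69 with an FDR of 0.127 by edgeR, the mannosidase MAN1B1 at −0.01 (FDR 0.983), and MCFD2, the cargo receptor subunit with the highest level per length, at 0.02 (FDR 0.958).

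Among 19 genes of ER-associated degradation none passed, 12 were higher and 7 lower, with a median of 0.10. DERL3, a derlin of the export channel, had the largest difference at 0.82 (FDR 0.193, edgeR), at 1.35 to 4.69 CPM in CON and 3.1 to 5.37 CPM in MET samples. EDEM1, a mannosidase-like protein that marks glycoproteins for degradation, was most negative at −0.51 (FDR 0.256, edgeR), with CON 3 at 44.1 CPM and all other samples between 13.6 and 22.7 CPM. The lectin OS9 was the most abundant per length and was at −0.03 (FDR 0.918).

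Of the UPR sensors and transcription factors, 10 of 11 were tested (ERN1 was not matched by symbol), 5 were higher and 5 lower, and the median was 0.04. DDIT3, which encodes the stress factor CHOP, passed over the 12 libraries at 0.52 ± 0.10 with an FDR of 0.0452 by edgeR, and over the 10 samples it had 0.55 with an FDR of 0.155. It was at 20.3, 15.8, 16.8, 19.4 and 16.1 CPM in CON samples and at 25.5, 30.4, 25.2, 26.0 and 23.1 CPM in MET samples. Every MET sample was above every CON sample, and CON 3 was low, unlike for the chaperones. The r of DDIT3 with HSPA5 was 0.466 (adjusted permutation p = 0.822). ATF4, the factor translated under PERK signalling, had the highest level per length of this list and a log2 fold change of 0.23 (FDR 0.385), and MBTPS1, the protease that releases ATF6, was most negative at −0.22 (FDR 0.349, edgeR).

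In the list of the PERK arm and stress output, 6 of 10 were tested (CEBPB was not matched), and none passed, with 4 higher, 2 lower and a median of 0.005. WFS1, an ER membrane protein, was at 1.09 ± 0.34 with an FDR of 0.109 by edgeR. It reached 75.4 CPM in MET 4 and 51.4 CPM in MET 5, against 11.1 to 28.3 CPM in the 8 other samples. PPP1R15B, the constitutive partner of the phosphatase that reverses PERK signalling, was the most abundant per length and the most negative, at −0.12 (FDR 0.573, edgeR). CHAC1 and BBC3, targets of the CHOP pathway, had only 64 and 90 reads in all 12 libraries and were not tested.

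**Figure D5:**
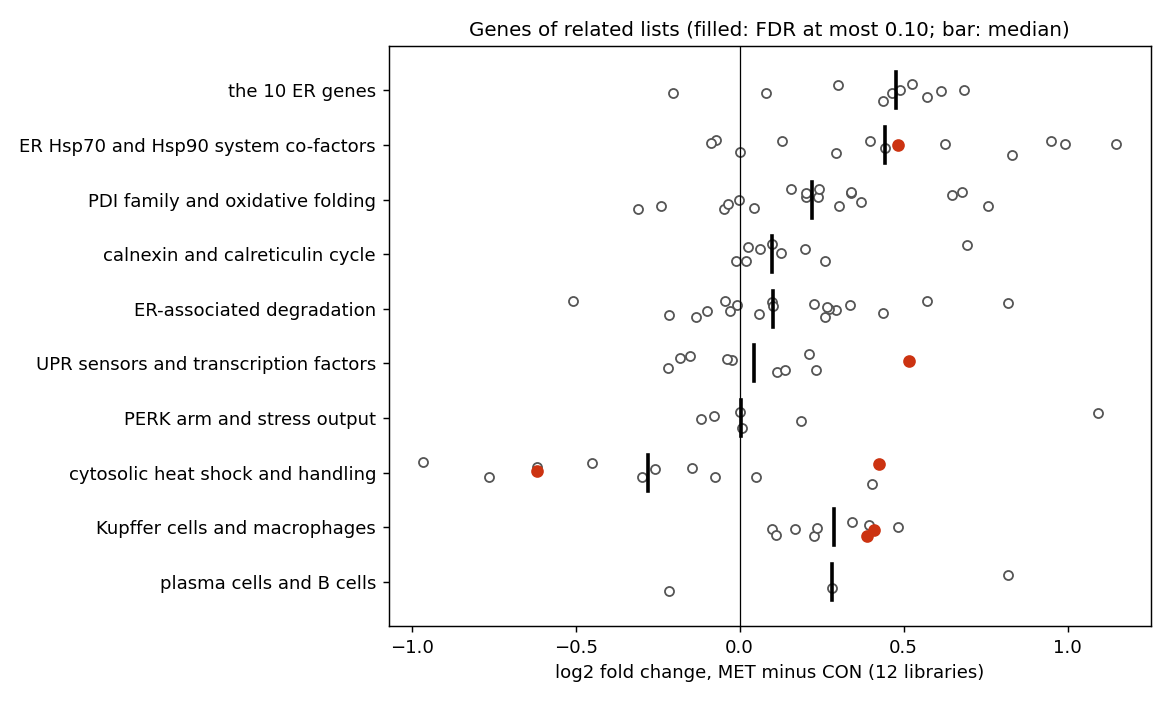
Log2 fold change, MET minus CON over the 12 libraries, of each tested gene (points) in the 10 ER genes, the 6 related lists and 3 comparison lists, filled where the FDR was at most 0.10, with the median as a bar. The medians of the 10 ER genes (0.48) and of the Hsp70 and Hsp90 co-factors (0.44) lie right of those of the other ER lists, and the cytosolic heat shock and handling list has its median at −0.28.

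A list of cytosolic heat shock and handling genes was followed for comparison. All 12 were tested, 9 were lower and 3 higher in MET, and the median log2 fold change was −0.28. Beside chaperones of the cytosol, this list holds the mitochondrial HSPD1 and the immediate early genes FOS, JUN, EGR1 and IER2. FOS was most negative at −0.96, and the heat shock gene HSPB1 was higher at 0.40. HSPA1A, the inducible Hsp70, passed at −0.62 ± 0.12 with an FDR of 0.0452 by edgeR, and over the 10 samples it had −0.69 with an FDR of 0.155. It was at 163 to 239 CPM in all CON samples and at 101 to 136 CPM in all MET samples, without overlap. The constitutive HSPA8 was at −0.62 ± 0.20 with an FDR of 0.123, and the immediate early gene IER2 passed as higher, at 0.43 with an FDR of 0.0869 by edgeR over the 12 libraries and 0.187 over the 10 samples. The r with HSPA5 was −0.593 for HSPA1A and −0.088 for HSPA8, neither of which passed.

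Markers of other cells were set beside these values. Plasma cells are rich in ER chaperones, and of 10 plasma cell and B cell markers only 3 were tested, because MZB1, with 54 reads in all 12 libraries, TNFRSF17, with 5, and 5 others were below the filter on low counts. The list summed to 9.05 to 17.6 CPM in CON and to 13.1 to 17.0 CPM in MET samples, and its part in the result was not tested. Kupffer cell and macrophage markers were higher in MET in 10 of 10 genes with a median log2 fold change of 0.29, and 2 of them, C1QC and C1QB, passed over the 12 libraries, with an FDR of 0.175 and 0.214 by edgeR over the 10 samples. They summed to 1421 to 1879 CPM in CON and 1705 to 2263 CPM in MET samples, none was at 0, and their r with HSPA5 was between 0.221 and 0.684. All 5 tested neutrophil markers were higher in MET without passing, with a median log2 fold change of 1.14, and summed to 33.6 to 67.9 CPM in CON and 25.6 to 192 CPM in MET samples. In the hepatocyte list 7 of 10 were lower and APOB passed as lower at −0.38 over the 12 libraries (FDR 0.0859, edgeR, and 0.188 over the 10 samples). The r of this list with HSPA5 ran from −0.769 for AHSG and −0.766 for ALB to 0.227, and none passed. ALB, at 62223 CPM in CON and 39451 CPM in MET on average, had a log2 fold change of −0.65 (FDR 0.107, edgeR). HP had the largest difference of this list, higher in MET at 1.05 without passing. It was at 7399 CPM in CON and 18392 CPM in MET on average. In the stellate cell list 9 of 10 were lower and LUM passed over the 12 libraries. Of cholangiocyte markers 4 of 5 were lower and CFTR passed as lower over the 12 libraries. Endothelial markers had 4 of 9 higher, and 1 of 8 erythroid markers was tested, with no call in either list. The part of these cells in the levels of the ER genes was not tested.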

How the data were processed

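The authors trimmed single-end reads with Trimmomatic 0.33 (per the labels), used STAR 2.5.3a to align them to UMD 3.1.1, a bovine genome assembly, and counted them on exons with featureCounts of Subread 1.5.2, by strand and without multi-mapping reads. They deposited raw counts per Entrez gene for each library, without normalization. Here symbols were matched through a table of RefSeq genes, which named 25105 of 30336 genes, and positions and exonic lengths came from the file annotation.

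The default filter of edgeR (minimum count 10, total 15) left 13212 genes. Diets were compared with the quasi-likelihood test of edgeR 4.0.16 (R 4.3.3) on TMM-scaled counts, diet alone, with Benjamini-Hochberg adjustment over all genes tested and an FDR of 0.10, the test and threshold of the study's methods. The SE is the log2 fold change divided by the square root of F. The same genes were refitted over 10 samples with the reads of close pairs summed. CPM of a pair were averaged. Covariation with HSPA5 used log2 CPM (prior count 2) over the 10 samples, with 100000 two-sided permutations and adjustment over 13211 genes.

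In each related list, genes with an FDR of at most 0.10, the highest level per length and the largest positive and negative log2 fold changes were named. Other genes named, and the HERPUD1 ratio, were chosen after their values were seen. The 10 genes and all lists were chosen with earlier results of these data known. Alternatives were RLE factors, library totals only, no filter, DESeq2 1.42.0, limma 3.58.1 (voom), a replicate block, a gene length correction and each library left out. Scripts were tested on simulated data.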

Additional observations from a re-analysis of the deposited data

Results flagged for a closer look

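In groups of 5 samples, the gap of the highest or the lowest sample to its nearest neighbour was compared with the range of the group (Dixon's criterion, 0.710), which chance passes in about 1 of 20 groups. Of 62 groups of members, the 5 genes most like HSPA5 and summed lists examined, 5 passed. CANX was at 616 CPM in MET 4, against 400.1 to 415 CPM in the other MET samples. HERPUD1 was at 98.9 CPM in MET 2, against 71.0 to 78.9 CPM in the others. The 10 genes summed to 4410.2 CPM in the pooled MET 1 and 3, against 7235 to 8317 CPM in the other MET samples. The summed co-factors of the ER Hsp70 and Hsp90 system were at 742 CPM in that pooled sample, against 1242 to 1419 CPM in the other MET samples. The erythroid list, in which only ALAS2 was tested, was at 21.6 CPM in the same pooled sample, against 2.01 to 5.98 CPM in the other MET samples. CON samples ran up to 21.9 CPM, in CON 2.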

How the results depend on the processing

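None of the 10 genes passed an FDR of 0.10 with RLE factors, library totals only, no filter, DESeq2, voom, the replicate block, summed pairs (by edgeR or DESeq2) or the gene length correction. Leaving out each library gave 0 to 1 of the 10, the 1 being HSP90B1 at 0.99 without CON replicate 3. CANX ran from −0.037 without MET replicate 4, a reversal, to 0.22 without CON replicate 3. Of 220 single-gene values under alternatives, 218 kept their direction and side of the threshold.

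The count of all genes that passed, 583 with 47.3% higher in MET, was 107 with library totals only (66.4% higher), 238 without a filter, 1314 with DESeq2, 245 with the gene length correction, 0 with pairs summed by edgeR (624 by DESeq2), and 0 with pairs summed and the length correction, an alternative chosen after seeing the data. Leave-one-out counts ran from 26 without CON replicate 1 to 565 without CON replicate 2. They were 35 without CON 4, 284 without CON 3, 376 without CON 6, 206 without MET 1, 349 without MET 2, 332 without MET 3, 295 without MET 4, 340.0 without MET 5 and 216 without MET 6. The causes were not tested. A replicate block by label number gave 6 genes. Deviations of same-numbered libraries correlated between −0.19 and 0.148 and no library correlated best with its own number, so the numbers did not pair the libraries.

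Of the other 9 members, 2 passed the covariation test, 0 by Spearman's rho, 6 with library totals only and 6 over 12 libraries. Their median r was between 0.83 and 0.942 in these settings, with diet means taken out and with each sample left out, and 0.815 without the 2 samples farthest from the median. The share of all genes that passed was taken only in the main setting (0.0984%), so the counts of 6 have no background beside them. The setting of 12 libraries also counts each close pair as 2 samples. With a 1.86- to 4.48-fold range between samples, the diet differences of the 10 genes had standard errors of 0.17 to 0.39 (log2) over the 12 libraries and 0.19 to 0.41 over the 10 samples.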
